A study of Homo sapiens with 12 samples.

Results

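The 50 genes described here build and run the mitotic spindle and divide the cell: cyclins and CDC25 phosphatases, mitotic kinases, the chromosomal passenger complex, kinetochore and checkpoint proteins, the anaphase machinery, mitotic kinesins, spindle microtubule-associated proteins and cytokinesis proteins. They were taken by symbol from a list put together by function, with earlier results of these data known, and all 50 were among the 20375 genes listed for each library. A filter on low values (at least 1 TPM in at least 4 libraries) left 12517 genes for testing, and all 50 passed it. TPM gives a gene's share of all transcripts of its library, corrected for transcript length.

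PE/CA-PJ41, an oral squamous cell carcinoma line, was given 10% platelet-rich plasma (PRP) or 10% human plasma for 48 h, or left untreated as the control, and polyadenylated RNA was sequenced from 4 libraries per group. The labels name a single line, no culture time for the control and no donors of the plasma. They do not tie replicates to separate cultures, so the p-values below measure the spread between libraries, which may be technical.

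Cells nearing mitosis raise many of these genes together in G2. In resting and early cycling cells the DREAM complex holds many of them off, and later B-MYB and FOXM1 join the same MuvB core to raise them. Contact is made through the cell cycle genes homology region (CHR), a short element next to the transcription start, often with CCAAT boxes bound by NF-Y further upstream. After anaphase the APC/C, a ubiquitin ligase, destroys many of the proteins. In bulk RNA a larger share of cells in G2 and mitosis and more transcript per cell cannot be told apart.

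The RefSeq promoter table (GRCh38.p14, 250 bases before to 50 after each start) held 42 of the 50 genes. AURKA, BIRC5, BUB3, FOXM1, RACGAP1, TPX2, TTK and UBE2C were not in it. Shown are 100 bases before to 20 after the start for 5 genes that rose with both additives (PLK1, CCNB2, CENPA, CDCA8, BUB1B), for the gene that fell (HMMR) and for a pair that passed in neither direction (ANLN, MKI67), chosen after their values were seen. Capitals mark the CHR core TTTGAA on either strand (TTCAAA when read from the other one).
PLK1, chr16:23678789-23678908, + strand: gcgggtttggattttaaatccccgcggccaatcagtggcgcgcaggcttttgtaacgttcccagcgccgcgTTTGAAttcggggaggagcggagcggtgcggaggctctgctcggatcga
CCNB2, chr15:59105046-59105165, + strand: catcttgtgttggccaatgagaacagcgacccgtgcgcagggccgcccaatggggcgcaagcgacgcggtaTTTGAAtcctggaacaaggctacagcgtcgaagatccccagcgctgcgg
CENPA, chr2:26785956-26786075, + strand: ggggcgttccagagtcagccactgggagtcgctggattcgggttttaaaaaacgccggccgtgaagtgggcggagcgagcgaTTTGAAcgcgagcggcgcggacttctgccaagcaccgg
CDCA8, chr1:37692416-37692535, + strand: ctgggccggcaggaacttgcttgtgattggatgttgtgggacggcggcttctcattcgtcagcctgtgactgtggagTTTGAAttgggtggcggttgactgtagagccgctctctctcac
BUB1B, chr15:40160969-40161088, + strand: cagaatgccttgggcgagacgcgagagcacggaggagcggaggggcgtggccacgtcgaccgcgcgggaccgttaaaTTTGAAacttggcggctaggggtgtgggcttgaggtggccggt
HMMR, chr5:163460532-163460651, + strand: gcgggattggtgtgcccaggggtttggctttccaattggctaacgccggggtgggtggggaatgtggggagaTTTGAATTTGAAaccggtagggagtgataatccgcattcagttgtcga
ANLN, chr7:36389762-36389881, + strand: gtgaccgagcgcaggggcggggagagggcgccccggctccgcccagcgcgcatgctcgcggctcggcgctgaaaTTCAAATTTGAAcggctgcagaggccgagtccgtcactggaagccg
MKI67, chr10:128126404-128126523, - strand: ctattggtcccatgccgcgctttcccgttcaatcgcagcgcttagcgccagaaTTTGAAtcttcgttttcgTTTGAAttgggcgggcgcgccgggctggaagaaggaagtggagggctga
The core began 29 bases upstream of the start in PLK1 and in CCNB2, 23 in CDCA8 and in BUB1B, and 18 in CENPA. HMMR had 2 adjoining copies, at 28 and 22 bases upstream, and ANLN 2 adjoining copies on opposite strands. Every promoter shown holds the core near its start, and genes without a match are not shown. These examples therefore cannot tell whether the core goes with the direction of change.

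TTTGAA, searched on both strands, was found in 30 of the 42 genes (71.4%), against 18.2% of 27305 genes in the table. In 19 of the 42 (45.2%) it began within 40 bases upstream of the start, against 2.64% of all genes. CCAAT, also on both strands, was present in 35 of the 42 (83.3%) and in 39.7% of all genes. The variant TTCGAA was present in 3 of the 42 (7.14%) and in 1.82% of all genes. The 3 motifs were counted independently of each other. A match is a string of letters, not a site of binding. Among the 30 genes with TTTGAA 18 rose with PRP (median log2 change 0.19), and among the 12 without it 10 rose (median 0.37). With plasma 15 of the 30 rose (median 0.16) and 10 of the 12 (median 0.31). Of all tested genes 21.7% rose with PRP (median -0.06) and 20.3% with plasma (median -0.05), by the same limit of adjusted p under 0.05. These are descriptions with no test.

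**Figure D1:**
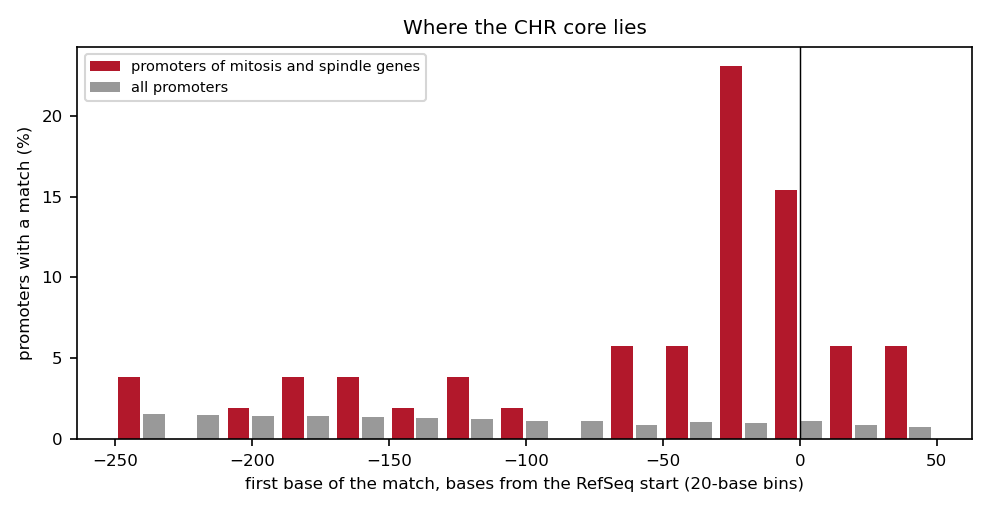
Share of RefSeq promoters (%) with TTTGAA on either strand, by position of the match's first base relative to the start in 20-base bins, for 52 promoters of the mitosis and spindle genes (red) and all 35116 promoters (grey). The highest red bar is 23.1% of promoters, 30 to 11 bases upstream, where 1.01% of all promoters have a match.

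Libraries of each group differed by replicate number, which is given before the results because it moves them. In control, replicates 1 and 2 were both below replicates 3 and 4 in 37 of the 50 genes, a pattern that 16.8% of all tested genes showed. In the treated groups the genes leaned the other way: replicates 1 and 2 were both above replicates 3 and 4 in 32 of 50 genes with PRP and 29 of 50 with plasma, against 35.7% and 36.4% of all tested genes. The summed level of the 50 genes was 5477, 5524, 5274 and 5062 TPM with PRP, 5279, 5300, 5055 and 5070 TPM with plasma, and 4079, 4274, 4628 and 4734 TPM in control, in order of replicate number. Every treated library was therefore above every control library, and the gap was widest between the libraries numbered 1 and 2. The mitochondrial share of reads also moved with the number, from 0.191% to 0.731% with PRP, 0.216% to 0.769% with plasma and 0.287% to 0.969% in control, lowest in replicate 1 each time. The part of these library differences in the results was not tested, so counts are given with all 12 libraries and with each pair of replicate numbers alone.

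Most of the mitosis and spindle genes were higher with PRP than in control. With PRP 35 of the 50 passed as higher (adjusted p under 0.05 over all tested genes), and over all genes the share higher was 21.7%. HMMR was the 1 gene that fell, where 31.5% of all genes did, and the remaining 14 passed in neither direction. Plasma gave 31 higher, against 20.3% of all genes, and again only HMMR lower among the 50, against 29.0% of all genes. The median log2 change of the 50 genes was 0.28 with PRP and 0.23 with plasma, and that of all tested genes was -0.06 and -0.05. The increases were mostly small: 8 genes rose by at least 0.5 on the log2 scale with PRP, where 5.94% of all genes did, and 7 with plasma, where 4.98% did. Both comparisons use the same 4 control libraries.

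By the order of the libraries alone, 31 of the 50 genes had every PRP library above every control library, which held for 19.0% of all tested genes, and 29 had every plasma library above every control library, which held for 18.2%. HMMR alone among the 50 had every treated library below every control library, a pattern seen in 27.8% of all tested genes with PRP and 25.7% with plasma.

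These counts changed with the replicates used. From replicates 1 and 2 alone, 40 genes were higher with PRP and 38 with plasma, and from replicates 3 and 4 alone 20 and 19. The share of all genes called higher with PRP was 19.3% and 18.0% in the same order, and with plasma 16.2% and 17.6%. All 20 genes called with PRP from replicates 3 and 4 were also called from replicates 1 and 2: PLK1, AURKA, AURKB, CCNA2, CCNB1, CCNB2, CDC20, CENPA, TPX2, KIF11, KIF20A, KIF2C, SPC24, BIRC5, CDCA8, CDCA3, ESPL1, PTTG1, DLGAP5 and NEK2. The 19 for plasma held CDC25B in place of AURKB and ESPL1. From replicates 3 and 4 alone, 3 genes were lower in each comparison: HMMR, ANLN and NUSAP1 with PRP, and HMMR, ANLN and KIF23 with plasma. The share of all tested genes lower from this pair was not counted. With all 12 libraries it was 31.5% with PRP and 29.0% with plasma. Centring each library on its median gene left HMMR lower and raised the counts to 39 and 33. Of all tested genes 27% were then higher with PRP and 25.6% with plasma. Centring also moved the share of higher genes among all called genes to 51.1% with PRP and 52.0% with plasma, from 40.8% and 41.2% on the deposited scale. By voom on reads 42 genes were higher with PRP and 37 with plasma, against 30.4% and 28.8% of all tested genes. Those added with PRP were INCENP, CENPE, KIF14, KIF18A, CKAP2, PRC1 and ECT2. With plasma they were CENPE, KIF18A, CKAP2, ECT2, CDC25C and UBE2C. The calls of these genes therefore depend on the scale used.

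**Figure D2:**
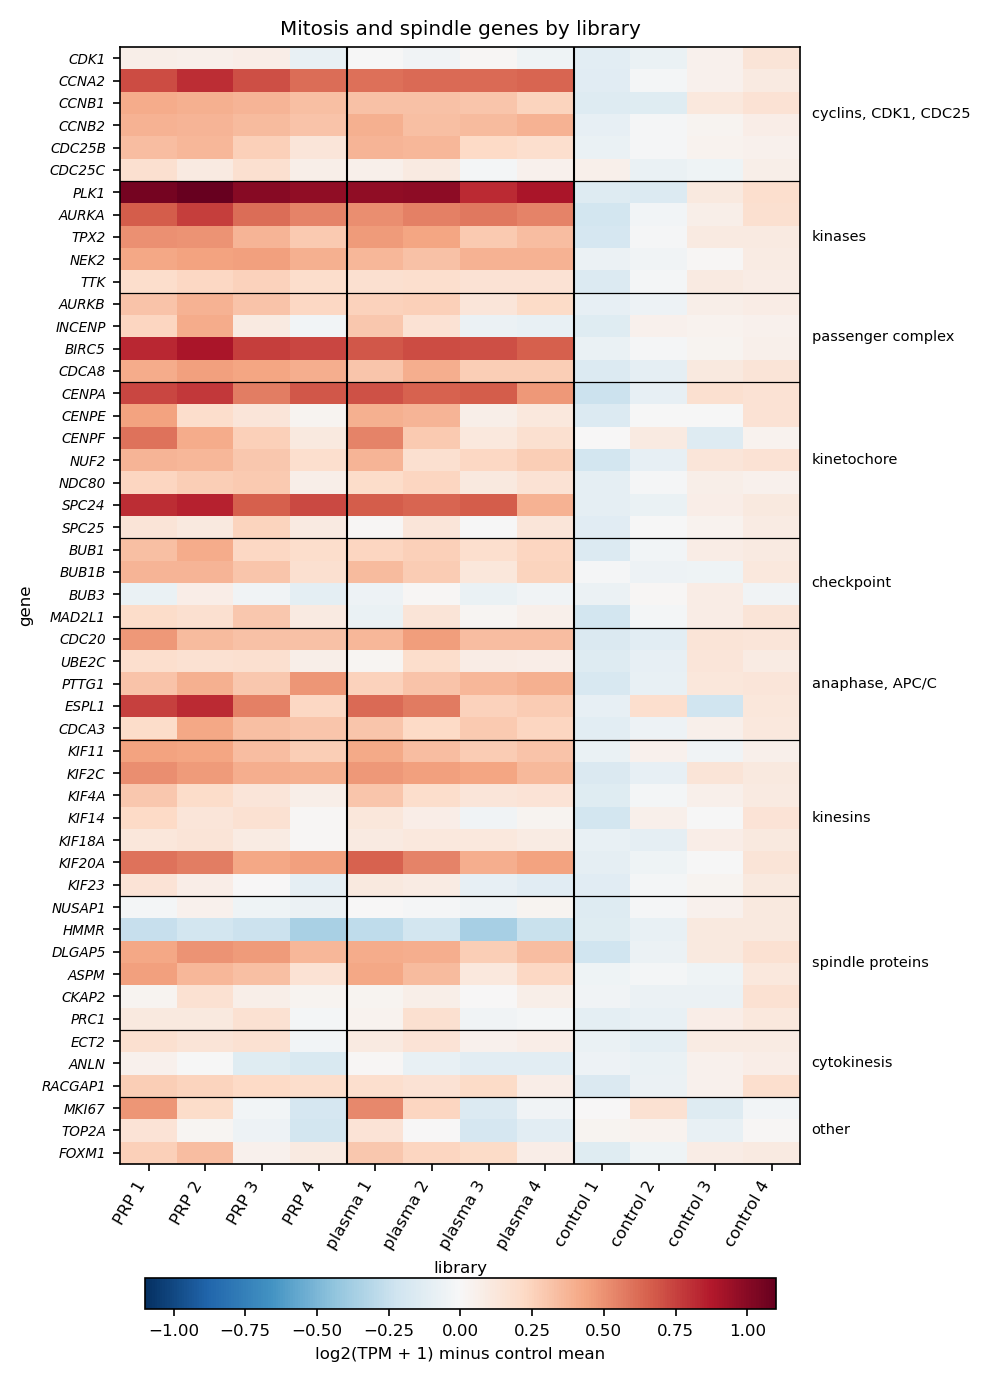
log2(TPM + 1) of each of the 50 genes in each of the 12 libraries, less the gene's mean in the 4 control libraries, with genes in rows by role and libraries in columns. PLK1 is darkest in each of the 8 treated libraries, HMMR is below 0 in each of them, and control replicate 1 is below its group's mean for most genes.

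**Figure D3:**
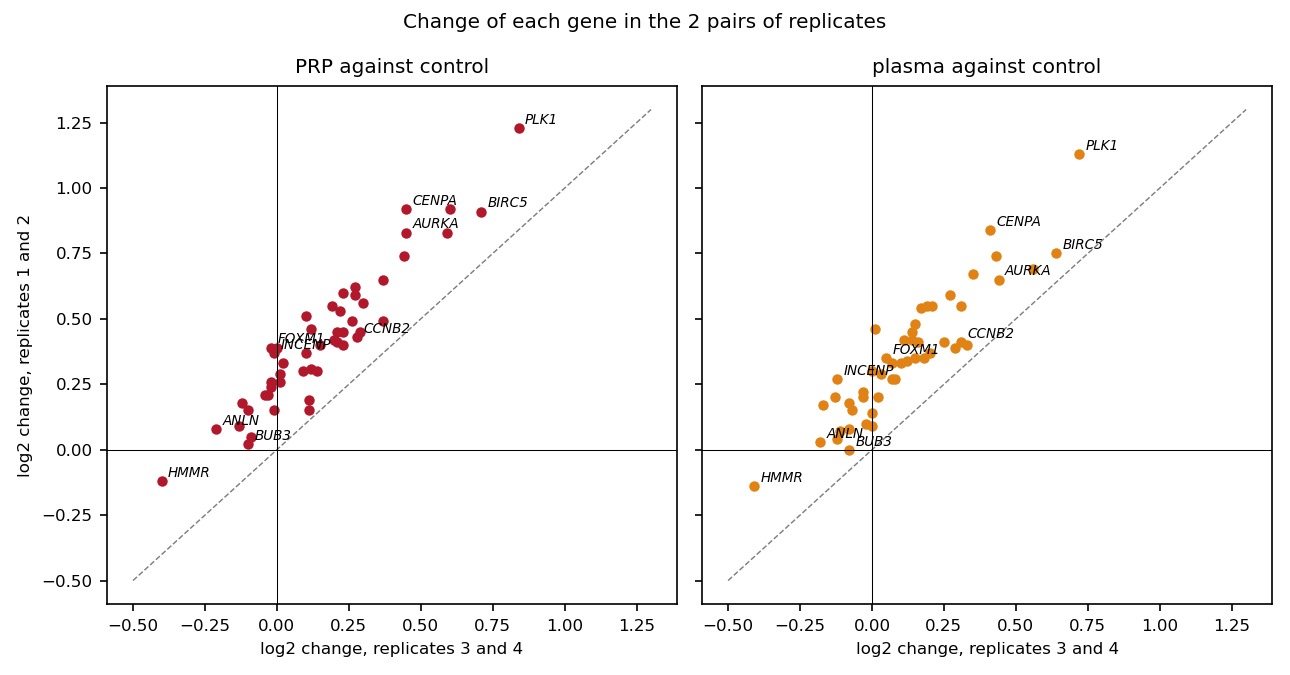
log2 change against control of each of the 50 genes from replicates 3 and 4 (x axis) and from replicates 1 and 2 (y axis), for PRP and for plasma, with the line of equality dashed. Nearly all points lie above the line, with PLK1 at 0.84 and 1.23 for PRP, and HMMR is below 0 on both axes.

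The counts by role that follow are read against the shares of all tested genes. These were 21.7% higher and 31.5% lower with PRP, and 20.3% and 29.0% with plasma. Each role holds few genes, and no role was tested as a set. Among the mitotic kinases 5 of 5 genes rose with PRP and 5 of 5 with plasma. PLK1, which drives mitotic entry, centrosome maturation and cytokinesis (chromosome 16, 23677656 to 23690367, + strand, GRCh38), had 125, 130, 120 and 118 TPM with PRP, 118, 119, 106 and 112 TPM with plasma, and 53.8, 53.6, 64.4 and 68 TPM in control. No treated library came near a control library. Its mean was 2.06 times control with PRP, the largest ratio among the 50 genes, with a log2 change of 1.04 ± 0.07 (SE, limma adjusted p = 6.41e-08), and with plasma the log2 change was 0.92 ± 0.07 (adjusted p = 2.38e-07). The exons of PLK1 overlap those of ERN2 on the opposite strand, which averaged 0.141 TPM with PRP, 0.040 with plasma and 0.123 in control.

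AURKA, which matures centrosomes and builds the spindle, and its activator TPX2, grouped with the kinases here, rose with both additives. The log2 changes were 0.64 ± 0.07 with PRP and 0.55 ± 0.07 with plasma for AURKA, and 0.41 ± 0.07 and 0.38 ± 0.07 for TPX2. NEK2, which splits the centrosomes, changed by 0.43 ± 0.04 and 0.36 ± 0.04. TTK, the checkpoint kinase MPS1, changed least of the group: it had 53.3, 54.4, 55.5 and 53.2 TPM with PRP, 52.4, 53, 51.9 and 51.9 TPM with plasma, and 41.6, 45.7, 49.6 and 49.1 TPM in control. Its treated libraries were all above control, by a log2 change of 0.22 ± 0.05 with PRP (adjusted p = 0.00222) and 0.17 ± 0.05 with plasma (adjusted p = 0.012).

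Of the cyclins, CDK1 and the CDC25 phosphatases, 5 of 6 rose with PRP and 4 of 6 with plasma. CCNA2, the cyclin of S and G2 phase, had 50.5, 53.9, 50.2 and 46.9 TPM with PRP, 46.8, 47.2, 47.2 and 47.9 TPM with plasma, and 27.8, 29.9, 31.4 and 32.5 TPM in control. The treated libraries did not overlap control, and the log2 change was 0.71 ± 0.05 with PRP (adjusted p = 1.39e-07) and 0.62 ± 0.05 with plasma (adjusted p = 5.78e-07). CCNB1, the main partner of CDK1 at mitotic entry, had 331, 327, 325 and 315 TPM with PRP, 312, 312, 309 and 296 TPM with plasma, and 226, 228, 271 and 279 TPM in control. It too was higher in every treated library, and the control libraries themselves fell into a lower and a higher pair. Its log2 change was 0.37 ± 0.06 with PRP (adjusted p = 0.000136) and 0.30 ± 0.06 with plasma (adjusted p = 0.00104). CCNB2, the Golgi-associated B cyclin, changed by 0.35 ± 0.04 and 0.36 ± 0.04.

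CDK1, the kinase that these cyclins activate, did not follow them over all replicates. It had 64.1, 63.9, 64.8 and 57.9 TPM with PRP, 61.2, 59.8, 61.9 and 59.4 TPM with plasma, and 56.7, 58.3, 63.4 and 67.7 TPM in control. The groups overlapped, with a log2 change of 0.03 ± 0.05 with PRP (adjusted p = 0.679) and -0.02 ± 0.05 with plasma (adjusted p = 0.796). The sign turned with the replicates used in both comparisons, and with plasma also after median centring and on reads. From replicates 1 and 2 alone CDK1 passed as higher with PRP (0.15, adjusted p = 0.0331) and not with plasma (0.07, adjusted p = 0.269). From replicates 3 and 4 it was -0.10 (adjusted p = 0.269) with PRP and -0.11 (adjusted p = 0.211) with plasma. CDC25B and CDC25C remove the inhibitory phosphates from CDK1. CDC25B rose with both, by 0.27 ± 0.06 and 0.29 ± 0.06, and CDC25C passed with PRP (0.13 ± 0.05, adjusted p = 0.0404) and was at 0.05 ± 0.05 with plasma (adjusted p = 0.474).

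In the chromosomal passenger complex, which corrects faulty attachments to microtubules and steers cytokinesis, 3 of 4 genes rose with each additive. BIRC5, the survivin subunit that is also an inhibitor of apoptosis (chromosome 17, 78214186 to 78225636, + strand), had 178, 187, 170 and 167 TPM with PRP, 161, 165, 164 and 158 TPM with plasma, and 94.7, 99.1, 102 and 104 TPM in control. The libraries did not overlap, and the ratio of means was 1.76 with PRP. The log2 change of 0.81 ± 0.04 with PRP had the smallest adjusted p of the 50 genes (5.41e-09), and with plasma it was 0.69 ± 0.04 (adjusted p = 2.64e-08). CDCA8, the borealin subunit, changed by 0.43 ± 0.06 with PRP and 0.31 ± 0.06 with plasma, and the kinase subunit AURKB by 0.31 ± 0.05 and 0.22 ± 0.05.

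INCENP, the scaffold that activates AURKB, was the exception on the TPM scale. It had 34.5, 39.1, 31.3 and 28.5 TPM with PRP, 36.1, 32.6, 27.9 and 27.4 TPM with plasma, and 26.5, 30.1, 29.9 and 30.2 TPM in control. Replicates 1 and 2 of both treated groups were above all control libraries and replicate 4 of each lay within the control range. The log2 change was 0.18 ± 0.10 with PRP (adjusted p = 0.138) and 0.08 ± 0.10 with plasma (adjusted p = 0.536). By voom on reads INCENP passed with PRP (0.23, adjusted p = 0.0105) and not with plasma (0.14, adjusted p = 0.107).

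At the centromere and kinetochore 6 of 7 genes rose with PRP and 5 of 7 with plasma. SPC24, a subunit of the NDC80 complex that holds microtubules, had 60.5, 62.1, 54.1 and 57 TPM with PRP, 54.6, 53.5, 54.4 and 44.6 TPM with plasma, and 31.6, 32.2, 35.8 and 36.7 TPM in control. All treated libraries were higher, plasma replicate 4 least so. Its log2 change was 0.76 ± 0.07 with PRP (adjusted p = 1.14e-06) and 0.59 ± 0.07 with plasma (adjusted p = 1.53e-05).

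The other NDC80 complex subunits changed less. The log2 change with PRP was 0.22 ± 0.05 for NDC80, 0.31 ± 0.08 for NUF2 and 0.15 ± 0.06 for SPC25, and with plasma 0.18 ± 0.05, 0.26 ± 0.08 and 0.07 ± 0.06. SPC25 passed with PRP (adjusted p = 0.0364) and not with plasma (adjusted p = 0.319). Its 4 plasma libraries had 43.1, 46.9, 42.5 and 47 TPM, overlapping the 39, 42.6, 44 and 45.4 TPM of the control libraries. CENPA, the histone H3 variant that marks the centromere, changed by 0.69 ± 0.09 and 0.62 ± 0.09, and CENPF, a large outer kinetochore protein, by 0.34 ± 0.11 and 0.28 ± 0.11. CENPE, the kinetochore kinesin, had the lowest level of the 50 genes. It had 13, 10.8, 10.3 and 9.53 TPM with PRP, 12.5, 12.4, 9.76 and 10.2 TPM with plasma, and 8.29, 9.31, 9.27 and 10.5 TPM in control. The groups overlapped (log2 change 0.20 ± 0.10 with PRP, adjusted p = 0.118, and 0.24 ± 0.10 with plasma, adjusted p = 0.0723).

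In the spindle checkpoint, which delays anaphase until every kinetochore is attached, 3 of 4 genes rose with PRP and 2 of 4 with plasma. BUB1B, the BUBR1 protein of the mitotic checkpoint complex, had 88.3, 88.2, 84.3 and 76.9 TPM with PRP, 86.8, 82.6, 74 and 80.7 TPM with plasma, and 67.4, 65.1, 65.7 and 73.7 TPM in control. The treated libraries were all above control, though plasma replicate 3 by little, with a log2 change of 0.31 ± 0.06 (adjusted p = 0.000558) with PRP and 0.25 ± 0.06 (adjusted p = 0.00301) with plasma. BUB1, the kinase that recruits it, changed by 0.29 ± 0.06 and 0.23 ± 0.06. MAD2L1, the MAD2 protein that binds CDC20, changed by 0.19 ± 0.07 with PRP (adjusted p = 0.0361) and 0.04 ± 0.07 with plasma (adjusted p = 0.689).

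BUB3, their shared partner, is present through the whole cycle and was among the most abundant of the 50 genes. It had 271, 299, 277 and 264 TPM with PRP, 274, 287, 271 and 277 TPM with plasma, and 273, 287, 302 and 278 TPM in control. The ranges coincided, with a log2 change of -0.04 ± 0.04 in each comparison (adjusted p = 0.494 with PRP and 0.496 with plasma), and the sign turned after median centring.

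The anaphase group, grouped here around the APC/C, had 5 of 5 genes higher with PRP and 4 of 5 with plasma. PTTG1, the securin that holds separase inactive, had 268, 283, 265 and 301 TPM with PRP, 257, 267, 277 and 282 TPM with plasma, and 190, 203, 235 and 236 TPM in control. The treated libraries did not overlap control (log2 change 0.38 ± 0.07, adjusted p = 0.000304, with PRP and 0.33 ± 0.07, adjusted p = 0.00094, with plasma). CDC20, the APC/C activator that the checkpoint restrains, had 274, 251, 247 and 247 TPM with PRP, 254, 271, 249 and 249 TPM with plasma, and 176, 182, 218 and 216 TPM in control. It was higher in every treated library, with a log2 change of 0.37 ± 0.07 in each comparison (adjusted p = 0.000343 and 0.000371).

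UBE2C, the ubiquitin-conjugating enzyme of the APC/C, had the highest level of the 50 genes. It had 351, 347, 348 and 323 TPM with PRP, 313, 353, 327 and 325 TPM with plasma, and 280, 290, 339 and 328 TPM in control. Control replicates 3 and 4 reached into the treated range. The log2 change was 0.15 ± 0.06 with PRP (adjusted p = 0.0416) and 0.10 ± 0.06 with plasma (adjusted p = 0.187), and from replicates 3 and 4 alone it was 0.01 with PRP. ESPL1, separase, which cuts cohesin, changed by 0.59 ± 0.13 and 0.43 ± 0.13, and CDCA3, a trigger of mitotic entry, by 0.31 ± 0.06 and 0.26 ± 0.06.

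Of the mitotic kinesins 4 of 7 rose with each additive. KIF20A, needed in cytokinesis, had 78.6, 76.7, 69.6 and 71.2 TPM with PRP, 81.9, 76, 68.4 and 70.7 TPM with plasma, and 48.3, 50.1, 51.6 and 57.3 TPM in control. All treated libraries were higher, by a log2 change of 0.51 ± 0.06 in each comparison (adjusted p = 2.00e-05 with PRP and 2.34e-05 with plasma). KIF11, which pushes the spindle poles apart, changed by 0.37 ± 0.05 and 0.34 ± 0.05, KIF2C, which takes microtubules down at the centromere, by 0.44 ± 0.06 and 0.43 ± 0.06, and KIF4A, a chromosome-bound motor, by 0.17 ± 0.06 and 0.20 ± 0.06.

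KIF23, the motor of the centralspindlin complex, had 99.3, 94.5, 89.7 and 83.4 TPM with PRP, 96.8, 95.2, 84.2 and 82.3 TPM with plasma, and 82.2, 88.4, 91.4 and 96.8 TPM in control. Replicates 1 and 2 were above replicates 3 and 4 in both treated groups and below them in control. With plasma the log2 change was -0.00 ± 0.07 over all replicates (adjusted p = 0.983), 0.17 from replicates 1 and 2 (adjusted p = 0.0362) and -0.17 from replicates 3 and 4 (adjusted p = 0.0321), so the pairs gave calls of opposite direction. KIF14 and KIF18A, which act in cytokinesis and chromosome alignment, had log2 changes of 0.13 ± 0.07 and 0.09 ± 0.05 with PRP, and 0.05 ± 0.07 and 0.11 ± 0.05 with plasma, and did not pass.

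Of the spindle microtubule-associated proteins 2 of 6 were higher, 1 lower and 3 in neither direction with each additive. Over all tested genes 21.7% were higher and 31.5% lower with PRP, and 20.3% and 29.0% with plasma. From so few genes these counts are no result about the role. DLGAP5, which stabilises spindle microtubules near the chromosomes, had 105, 110, 108 and 101 TPM with PRP, 104, 103, 94.5 and 98.7 TPM with plasma, and 67, 74.7, 84.1 and 87.7 TPM in control. The treated libraries did not overlap control (log2 change 0.43 ± 0.07, adjusted p = 0.000136, with PRP and 0.36 ± 0.07, adjusted p = 0.000757, with plasma). ASPM, which focuses the spindle poles, changed by 0.33 ± 0.08 and 0.28 ± 0.08.

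HMMR, the hyaluronan receptor RHAMM, also a spindle pole protein (chromosome 5, 163460203 to 163491945, + strand), had 41.6, 43.2, 42 and 38.7 TPM with PRP, 40.7, 43, 38.4 and 41.9 TPM with plasma, and 45.3, 46.8, 53.6 and 53.7 TPM in control. It is given in full after its values were seen, as the 1 gene of the 50 that fell. Every treated library was below every control library. The log2 change was -0.26 ± 0.06 with PRP (adjusted p = 0.00256) and -0.27 ± 0.06 with plasma (adjusted p = 0.00211). From replicates 1 and 2 it was -0.12 with PRP (adjusted p = 0.131) and -0.14 with plasma (adjusted p = 0.0975), and from replicates 3 and 4 it was -0.40 and -0.41. An antisense gene, HMMR-AS1, overlaps its exons and is not used here.

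NUSAP1, which bundles microtubules, had 192, 201, 188 and 186 TPM with PRP, 196, 193, 190 and 199 TPM with plasma, and 177, 193, 201 and 210 TPM in control. The ranges overlapped and neither comparison passed (log2 change -0.02 ± 0.05, adjusted p = 0.699, and 0.00 ± 0.05, adjusted p = 0.999). CKAP2, a spindle pole protein, and PRC1, which bundles the central spindle, had log2 changes of 0.07 ± 0.05 and 0.09 ± 0.06 with PRP and 0.04 ± 0.05 and 0.04 ± 0.06 with plasma, and did not pass either.

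In cytokinesis 1 of 3 genes rose with each additive, against 21.7% of all tested genes with PRP and 20.3% with plasma. From 3 genes this is no result about the role. RACGAP1, the partner of KIF23 in centralspindlin, had 158, 155, 153 and 150 TPM with PRP, 149, 146, 152 and 138 TPM with plasma, and 117, 125, 135 and 149 TPM in control. The PRP libraries were above all of the control libraries, the last by little, and the plasma libraries overlapped control replicate 4. The log2 change was 0.23 ± 0.06 with PRP (adjusted p = 0.00462) and 0.16 ± 0.06 with plasma (adjusted p = 0.0385). ECT2, the exchange factor that it activates to turn on RhoA, was at 0.11 ± 0.06 and 0.09 ± 0.06 and did not pass.

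ANLN, the anillin scaffold of the contractile ring, had 163, 157, 144 and 140 TPM with PRP, 159, 149, 145 and 145 TPM with plasma, and 152, 150, 163 and 166 TPM in control. The groups overlapped, with log2 changes of -0.06 ± 0.05 (adjusted p = 0.344) and -0.07 ± 0.05 (adjusted p = 0.259). From replicates 3 and 4 alone they were -0.21 (adjusted p = 0.00448) with PRP and -0.18 (adjusted p = 0.00908) with plasma.

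MKI67 and TOP2A, the usual proliferation markers, passed in neither comparison. MKI67, the Ki-67 protein that coats mitotic chromosomes, had 48.8, 39.9, 33.7 and 30.3 TPM with PRP, 50.3, 40.8, 31 and 33.6 TPM with plasma, and 34.7, 38.8, 31.2 and 33.7 TPM in control. Replicate 1 was the highest of both treated groups, and their replicates 3 and 4 lay within or just below the control range. Its log2 change was 0.12 ± 0.15 with PRP (adjusted p = 0.516) and 0.15 ± 0.15 with plasma (adjusted p = 0.439), the largest SE of the 50 genes. TOP2A, which untangles sister chromatids, had 165, 151, 143 and 129 TPM with PRP, 165, 149, 131 and 137 TPM with plasma, and 152, 153, 141 and 150 TPM in control. Its log2 change was -0.02 ± 0.07 (adjusted p = 0.816) and -0.04 ± 0.07 (adjusted p = 0.696), and the sign turned after median centring.

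FOXM1, the transcription factor that raises many of these genes in G2, had 157, 166, 135 and 140 TPM with PRP, 161, 154, 152 and 138 TPM with plasma, and 119, 127, 139 and 140 TPM in control. Treated replicates 1 and 2 and plasma replicate 3 were above control, and the other treated libraries lay within it. The log2 change was 0.18 ± 0.07 with PRP (adjusted p = 0.0414) and 0.20 ± 0.07 with plasma (adjusted p = 0.0304). From replicates 1 and 2 it was 0.39 and 0.35, and from replicates 3 and 4 it was -0.02 (adjusted p = 0.769) and 0.05 (adjusted p = 0.469). The overlapping gene ITFG2, on the opposite strand, averaged 6.24 TPM with PRP, 6.68 with plasma and 8.90 in control.

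**Figure D4:**
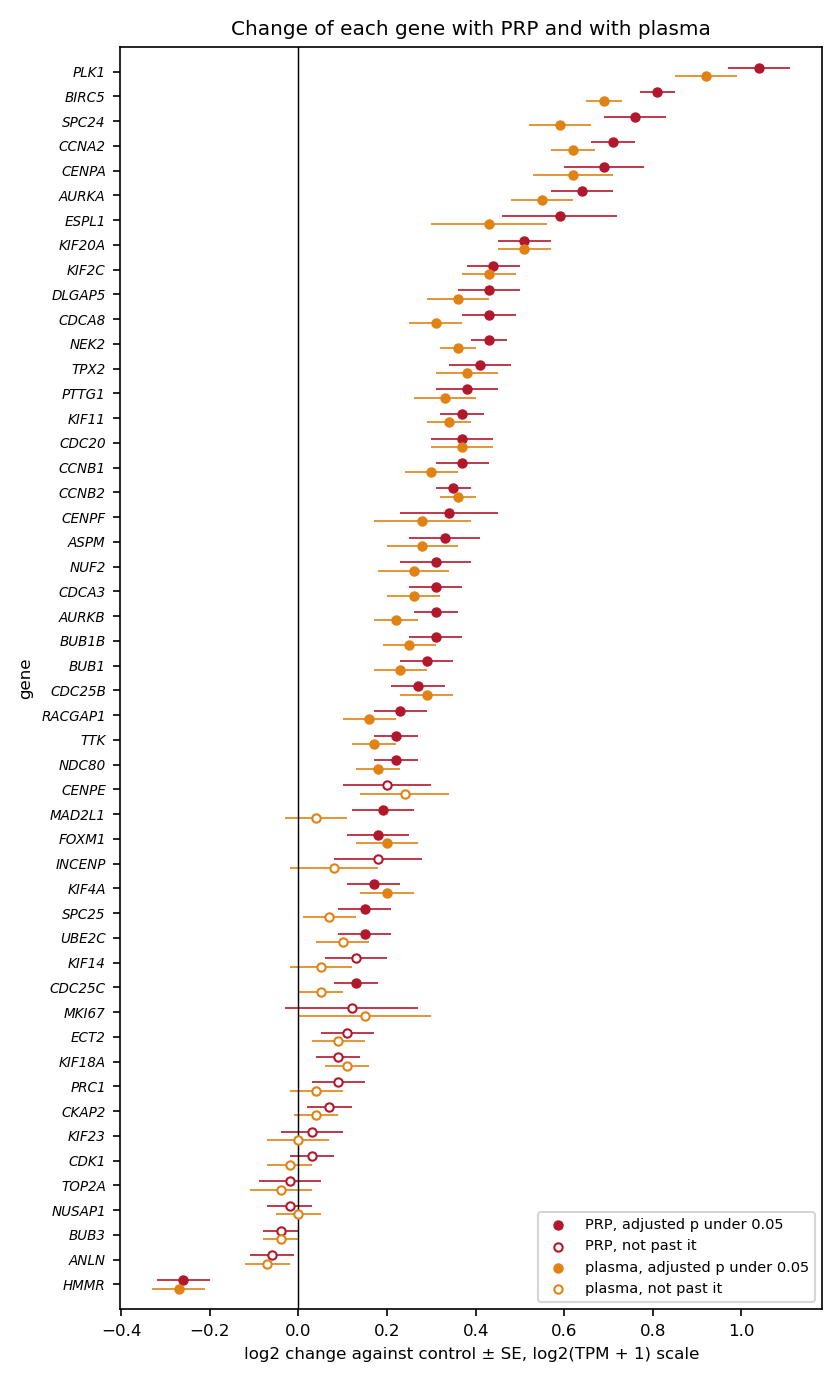
log2 change ± SE of each of the 50 genes (rows, ordered by the change with PRP) with PRP (red) and with plasma (orange) against control, on the log2(TPM + 1) scale; filled points passed an adjusted p of 0.05. Values run from 1.04 for PLK1 to -0.26 for HMMR with PRP, and the plasma point of a gene lies close to its PRP point.

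**Figure D5:**
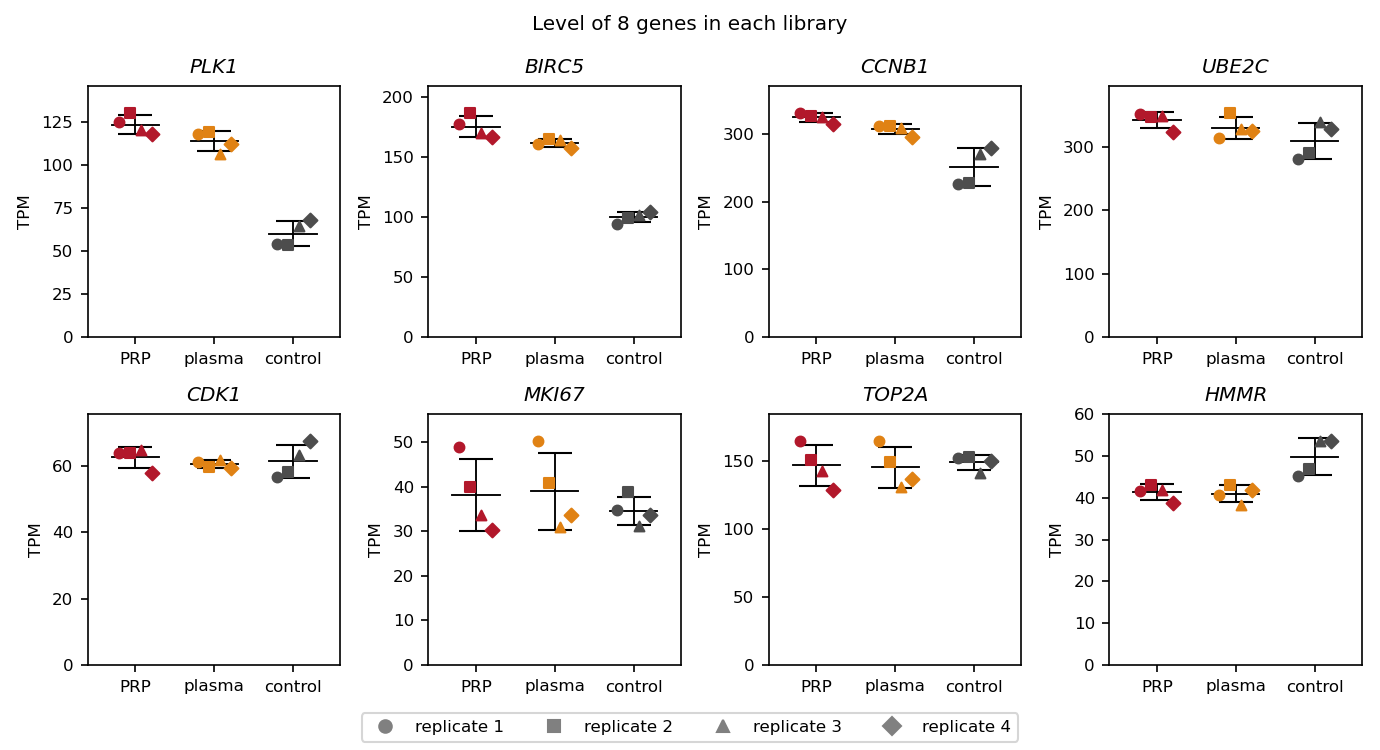
TPM in each library of 8 genes, with replicate number by symbol, the line and bars giving mean ± SD (n = 4 libraries per group); axes start at 0. PLK1, BIRC5 and CCNB1 are separated from control, UBE2C, CDK1, MKI67 and TOP2A overlap it, HMMR lies below it, and MKI67 is highest in treated replicate 1.

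PRP was then set against plasma, the comparison of platelet-rich with ordinary plasma. None of the 50 genes passed (0 higher and 0 lower by limma on TPM and by voom on reads), where 0.0639% of all genes did, a count of 8. At an unadjusted p under 0.05 there were 3 of the 50, BIRC5, MAD2L1 and SPC24, all higher with PRP, against 7.98% of all genes. The difference was positive for 40 of the 50 genes, but the share positive over all tested genes was not counted. All genes come from the same libraries, so their signs are not independent. The difference had a median of 0.05, against -0.00 for all tested genes. On the log2 scale it ranged from -0.04 (CENPE) to 0.17 (SPC24), while its SE ran from 0.04 to 0.15. For BIRC5 it was 0.11 (95% interval 0.02 to 0.20, adjusted p = 0.482), for PLK1 0.11 (-0.04 to 0.27, adjusted p = 0.737), for SPC24 0.17 (0.02 to 0.33, adjusted p = 0.552) and for HMMR 0.01 (-0.12 to 0.14, adjusted p = 0.99). Over the 50 genes the intervals reached down to -0.34 and up to 0.44. The 4 genes called against control with PRP alone, CDC25C, SPC25, UBE2C and MAD2L1, were therefore not shown to differ between PRP and plasma.

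Level and length of the transcripts were compared with the change. By mean over the 12 libraries, levels ran from 10.5 TPM for CENPE to 327 TPM for UBE2C, and the median log2 change with PRP was 0.27 in the more abundant 25 genes, of which 17 rose, and 0.29 in the less abundant 25, of which 18 rose. Of all tested genes in the same ranges of level, 35.3% rose in the more abundant range (median 0.03) and 20.4% in the less abundant one (median -0.07). By length, 14 of the 25 longer transcripts rose with PRP (2748 to 12267 bases, median 0.20) and 21 of the 25 shorter ones (726 to 2682 bases, median 0.31). Of all tested genes in the same ranges of length, 15.4% of the longer rose (median -0.09) and 26.2% of the shorter (median -0.03). Of the 11 genes with transcripts of at least 4000 bases, MKI67, CENPF, ASPM, CENPE, KIF14, TOP2A, ESPL1, KIF11, INCENP, KIF4A and ANLN, the median deviation from the group's mean was 0.12 in PRP replicate 1 and -0.17 in PRP replicate 4. For all 3098 tested genes of that length it was 0.09 and -0.09, and for the 39 shorter members 0.03 and -0.07. In plasma replicates 1 and 4 the same 3 sets had 0.15 and -0.08, 0.10 and -0.05, and 0.01 and -0.02. In control replicates 1 and 4 the members went the other way. The 11 long ones had -0.07 and 0.08 and the 39 shorter ones -0.13 and 0.11, while all tested genes of at least 4000 bases had 0.04 and -0.05. The effective length, by which TPM divides the reads, shifted by -0.09 to 0.06 on the log2 scale between treated and control libraries for the 50 genes, less than the changes of the leading ones. By voom on reads PLK1 changed by 1.14, BIRC5 by 0.92 and HMMR by -0.18 (adjusted p = 0.0375) with PRP.

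Other genes of cell division were taken from lists written for this purpose, and their counts are read against the same shares of all tested genes, 21.7% higher and 31.5% lower with PRP and 20.3% and 29.0% with plasma. Of 76 further mitosis genes 32 rose and 15 fell with PRP (median log2 change 0.09), and 26 rose and 16 fell with plasma (median 0.07). CENPM, a centromere protein, rose by 0.56 ± 0.04 with PRP and 0.38 ± 0.04 with plasma, the APC/C subunit ANAPC5 rose by 0.40 ± 0.04 and 0.34 ± 0.04, and CENPU, another centromere protein, was lower, by -0.40 ± 0.04 and -0.45 ± 0.04. Of 38 genes of G1/S and DNA replication 16 rose and 6 fell with PRP and 13 rose and 7 fell with plasma. UHRF1, a reader of replicated DNA, rose by 0.48 ± 0.07 and 0.33 ± 0.07, GINS1, a helicase subunit, by 0.33 ± 0.05 and 0.40 ± 0.05, and TK1, thymidine kinase, by 0.27 ± 0.04 and 0.31 ± 0.04. In condensin and cohesin 6 of 17 rose and 3 fell with each additive, among them SMC4 (0.33 ± 0.05 with PRP) and RAD21 (0.21 ± 0.03), with STAG1 lower (-0.36 ± 0.05).

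Among 16 regulators of these genes (the DREAM and MuvB complexes, RB family and E2F factors) 4 rose and 6 fell with each additive, shares close to those over all tested genes and so no result about these regulators as a set. RBL1, the p107 subunit of DREAM, had a mean of 13.9 ± 1.16 TPM with PRP, 12.4 ± 0.415 with plasma and 7.46 ± 0.502 in control (SD, n = 4), a log2 change of 0.82 ± 0.07 and 0.66 ± 0.07. LIN52, a MuvB subunit, had 18.1 ± 1.85 TPM with PRP, 18.6 ± 0.905 with plasma and 26.8 ± 0.874 in control, and RB1 had 61.5 ± 2.64, 62.8 ± 3.30 and 81.3 ± 0.984 TPM in the same groups. Of 12 tested tubulin and gamma-tubulin complex genes 6 rose and 3 fell with PRP and 4 rose and 4 fell with plasma. TUBGCP3 rose by 1.03 ± 0.08 with PRP and 0.80 ± 0.08 with plasma, TUBB6 by 0.25 ± 0.04 and 0.17 ± 0.04, and TUBA1A was lower, by -0.45 ± 0.07 and -0.41 ± 0.07. Between PRP and plasma 0 genes of these 5 lists passed.

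Markers of other cells were read beside these results, since both additives are made from blood. All 12 squamous epithelium markers were above 1 TPM, with summed levels of 18958 to 20741 TPM with PRP, 18675 to 20247 with plasma and 14682 to 16197 in control. KRT5 was the most abundant, with a mean of 6702 TPM. With PRP 4 of the 12 rose and 3 fell, against 21.7% and 31.5% of all tested genes. With plasma 4 rose and 4 fell, against 20.3% and 29.0%. The median log2 change of the 12 was -0.02 in each comparison. Of 8 platelet markers PF4, GP9 and TREML1 had 0 reads in every library, and the sum (251 to 284 TPM with PRP, 292 to 315 with plasma, 172 to 192 in control) was nearly all SPARC, which other cells also make. Of the erythroid markers HBB and ALAS2 had 0 reads, and of 10 leukocyte markers MS4A1, NKG7 and CSF3R did. The erythroid sum was 1.05 to 2.90 TPM with PRP, 1.17 to 1.92 with plasma and 1.38 to 2.85 in control, and the leukocyte sum 1.41 to 1.88, 1.04 to 1.40 and 1.84 to 2.53 TPM. The 6 fibroblast markers summed to 12.8 to 14.6, 13.8 to 17.2 and 16.3 to 21.8 TPM. The 5 endothelial markers summed to 29.5 to 35.3, 30.3 to 38.1 and 12.5 to 24.4 TPM, most of it CDH5, while PECAM1 averaged 0.00605, 0.0142 and 0.0283 TPM.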

How the data were processed

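The deposited tables give, per the file headers, transcript length, effective length, TPM and estimated counts of reads for 20375 genes in each of 12 libraries. Per the submitters' processing notes the tool was Salmon and the build hg38; the version, transcript set and use of strand are not given in the sources used here. Values were deposited with decimal commas, which were read as decimal points. The unit check could not register the columns as counts, and edgeR or DESeq2 were not used. Reads entered as alternatives, by voom and as CPM. TPM recomputed from reads and effective length matched the deposited TPM for 20375 of 20375 genes, within 1% plus 0.01 TPM. Libraries held 36258955 to 41976136 estimated reads. A gene with 0 reads could be at up to 0.0827 CPM in the shallowest library (floor of 3 reads, counting error only).

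Groups were compared on log2(TPM + 1) by limma with a mean-variance trend (version 3.58.1 under R 4.3.3), over all 12 libraries with 1 term per group (9 residual degrees of freedom), two-sided, with Benjamini-Hochberg adjustment over the 12517 genes at 0.05. The log2(TPM + 1) scale understates changes of low genes. TPM is relative to all other transcripts of its library. Within-group pairs of libraries differed beyond counting error (chi-square per gene 3.85 to 32.7, where 1 is the value for counting error alone), so none was treated as deposited more than once. The functions were tested on simulated data. Alternatives were other pseudocounts, filters and scalings, voom on reads, no trend, fewer groups, a replicate block, each library left out, the libraries numbered 1 left out and, chosen after seeing the data, each pair of replicate numbers alone.

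The 50 genes, their roles and the other lists were chosen with earlier results of these data known. Values per library are given for the genes with the smallest and largest p with PRP in each role and for PLK1, CCNB1, BIRC5, CDC20, UBE2C, TOP2A, MKI67 and FOXM1; from other lists at most 3 genes with the smallest p are named. Gene positions and overlaps are from GENCODE 29 (GRCh38) and promoters from RefSeq (GRCh38.p14). Exons of 20 of the 50 genes overlap another annotated gene, and without strand such reads cannot be told apart. PTTG2, a near copy of PTTG1, had 0 reads. A few values beside these genes are not reported here.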

Additional observations from a re-analysis of the deposited data

Results flagged for a closer look

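In 7 of 150 sets of 4 libraries (50 genes in 3 groups) 1 library stood apart from the other 3 by a fixed limit on the gap, where chance gives about 7.5 (1 in 20). With PRP, CDK1 was 57.9 TPM in replicate 4, against 63.9 to 64.8 in the others, UBE2C was 323 TPM in replicate 4, against 347 to 351, and CDC20 was 274 TPM in replicate 1, against 247 to 251. With plasma, SPC24 was 44.6 TPM in replicate 4, against 53.5 to 54.6. In control, INCENP was 26.5 TPM in replicate 1, against 29.9 to 30.2, and in replicate 4 ASPM was 16.5 TPM, against 14.6 to 14.9, and CKAP2 84.2 TPM, against 71.3 to 72.8.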

How the results depend on the processing

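Of 25 alternatives, 23 planned ones moved no count of members called against control by over 1.5 times: leaving out 1 library gave 28 to 37 members higher with PRP and 27 to 32 with plasma, and HMMR fell in each. Replicates 3 and 4 alone gave 20 and 19 higher and 3 lower each, and replicates 1 and 2 alone 0 lower. The share of all tested genes lower from each pair was not counted. The call held in all 25 for 20 of the 35 genes higher with PRP and 19 of the 31 with plasma. These are the same genes as those called from replicates 3 and 4 alone. The share of all called genes that held was not counted. The shared replicate numbers gave correlations of deviations from -0.07 to 0.30, with 5 of 12 libraries closest to their own number, so they were not read as pairs; with a replicate block 34 members were higher with PRP and 30 with plasma. Between PRP and plasma 0 members passed in every alternative and single genes were not followed; genes called were 4 without a filter and without the trend, 16 with only these groups, 2 without the libraries numbered 1, 0 from replicates 3 and 4, 2 from replicates 1 and 2, and 4 to 14 with 1 library left out.

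The cause of the following changes of sign was not tested; apart from FOXM1 with PRP and KIF23 with plasma, they are of genes that passed in neither setting. With PRP the log2 change became 0.015 for BUB3 and 0.028 for NUSAP1 and TOP2A after median centring, 0.025 for NUSAP1, 0.002 for ANLN and 0.013 for TOP2A as CPM, 0.061, 0.037 and 0.048 for the same genes by voom, and -0.020 for CDK1 and -0.047 for KIF23 without the libraries numbered 1. From replicates 1 and 2 it was 0.025 for BUB3, 0.088 for NUSAP1, 0.085 for ANLN and 0.049 for TOP2A. From replicates 3 and 4 it was -0.095 for CDK1, -0.119 for KIF23, -0.038 for KIF18A, -0.009 for INCENP, -0.027 for PRC1, -0.023 for ECT2, -0.019 for MKI67, -0.022 for FOXM1 and -0.008 for CKAP2. With 1 library left out it ran from -0.009 to 0.075 for CDK1, -0.009 to 0.076 for KIF23, -0.069 to 0.013 for NUSAP1, -0.002 to 0.22 for MKI67 and -0.079 to 0.036 for TOP2A.

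With plasma it became 0.010 for BUB3, 0.027 for CDK1, 0.044 for KIF23 and 0.008 for TOP2A after median centring, 0.014 for CDK1 and 0.029 for KIF23 as CPM, 0.043 for CDK1, 0.057 for KIF23 and 0.025 for TOP2A by voom, and -0.046 for KIF14, -0.040 for INCENP and -0.049 for NUSAP1 without the libraries numbered 1. From replicates 1 and 2 it was 0.003 for BUB3, 0.073 for CDK1, 0.170 for KIF23, 0.030 for ANLN and 0.041 for TOP2A. From replicates 3 and 4 it was -0.080 for KIF14, -0.001 for SPC25, -0.117 for INCENP, -0.075 for NUSAP1, -0.128 for PRC1, -0.031 for ECT2, -0.029 for UBE2C, -0.004 for MKI67, -0.071 for MAD2L1 and -0.021 for CKAP2. With 1 library left out it ran from -0.056 to 0.027 for CDK1, -0.043 to 0.038 for KIF23, -0.020 to 0.099 for KIF14, -0.046 to 0.036 for NUSAP1, -0.008 to 0.077 for PRC1, -0.100 to 0.009 for TOP2A and -0.030 to 0.085 for MAD2L1.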
